A study of Vicia sativa with 8 samples.

Results

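TCP proteins are plant transcription factors named after TEOSINTE BRANCHED1 of maize, CYCLOIDEA of snapdragon and the PCF proteins of rice, and they bind DNA through a shared basic helix-loop-helix-like domain. The PCF clade, also called class I, is described here in common vetch (*Vicia sativa*) through 7 unigenes, the assembled transcript sequences that the study placed in that clade: Unigene66157, Unigene13884, Unigene16302, Unigene50478, Unigene13289, Unigene70428 and Unigene65020. They were chosen by this placement and not by their levels, and they are 7 of 71553 unigenes in the assembly. All 7 had reads in every library and at least 50 reads in total, the minimum that 52191 unigenes passed.

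Libraries were made from 8 organs of the cultivar Lanjian 3, with 1 library per organ and no treatment. The sepals, the 3 petal types (dorsal, lateral and ventral), the carpels and the stamens came from flowers at floral stage 12 of plants about 45 days old, and leaves and roots came from 2-week-old seedlings. All plants were grown at 22 °C with 16 h of light and 8 h of dark, and flowers from many plants went into each floral library. The vetch flower has 1 plane of symmetry, with a dorsal petal (the standard), lateral petals (the wings) and ventral petals (the keel), and the libraries were made to ask which genes differ between these organs, with leaves and roots as controls. Organ and age cannot be told apart for leaves and roots.

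Class I TCP proteins are best known for their part in growth. In rice, PCF1 and PCF2 bind the promoter of the gene for proliferating cell nuclear antigen, a clamp that holds the polymerase on DNA during replication. In *Arabidopsis*, TCP20 binds promoters of a B-type cyclin gene and of genes for ribosomal proteins, TCP14 and TCP15 act on cell proliferation in stems and leaves, and class I members often act redundantly. The class II members are split into the CIN clade, which acts on leaf and petal shape, and the CYC/TB1 clade, which includes the regulators of dorsal petal identity in zygomorphic flowers.

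Each library held between 5.35 and 6.28 M reads (M, 1000000) that aligned uniquely to the unigenes. Levels are given as reads and as RPKM, the reads per kilobase of unigene and per M uniquely aligned reads, so that levels of different unigenes can be set side by side. Marker genes followed the labels in part. RPKM summed over the chlorophyll a/b binding proteins was highest in leaves at 29288, and over pollen proteins in stamens at 7012. AGAMOUS was at 315 in stamens and 216 in carpels against 10.2 or less in the other organs. PISTILLATA was at 506 or more in petals and stamens and 5.07 or less elsewhere. APETALA3 was at 245 or more in petals and stamens, but at 73.7 in sepals and 60.2 in leaves. Pollen proteins also stood at 2741 in ventral petals, against 953 in dorsal and 1060 in lateral petals. Chalcone synthase, read as a petal marker, was at 3598 in lateral, 3356 in dorsal and 1305 in ventral petals. It was at 1941 in roots and 1793 in carpels. The root marker was thin, with 1 nitrate transporter unigene at 3.72 RPKM in roots. No leghemoglobin unigene was found by name.

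With 1 library per organ there is no replicate, so no test between organs was possible. The 95% intervals are exact, from the Poisson distribution for a level and from the binomial distribution for a ratio of 2 libraries, and they cover counting error only. Fewer cells of a type and less RNA per cell cannot be told apart in these bulk libraries. Scaling the libraries by TMM factors in place of total reads shifted every unigene up by 0.37 (log2) in leaves and 0.28 in carpels, and moved roots by -0.11, sepals by -0.10 and the petals by -0.17 (dorsal), -0.16 (lateral) and -0.12 (ventral).

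The best protein matches deposited with the unigenes named *Arabidopsis* TCP7 for Unigene66157, TCP20 for Unigene16302, TCP22 for Unigene13289 and TCP19 for Unigene70428. Unigene13884 and Unigene50478 matched the rice genes Os01g0924400 and Os12g0173333, the latter described as a TCP family transcription factor, and Unigene65020 matched a TCP-domain protein of maize. E-values of the matches lay between 3e-31 and 7e-27. The unigenes were 317 to 1432 bp long, and 4 of the 7 were shorter than 1000 bp. Reads that aligned to more than 1 unigene were not counted, so reads from stretches that TCP unigenes share may be missing from these values.

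The 7 unigenes had no common organ of highest level. With total-read scaling, carpels were highest for 2 of the 7 (Unigene13884 and Unigene16302) and leaves for 2 (Unigene50478 and Unigene13289). Sepals, dorsal petals and roots were highest for 1 each. Of all unigenes with at least 50 reads, 16.4% were highest in carpels, 12.1% in leaves and 19.9% in roots. Under both TMM and median-of-ratios size factors, carpels were also highest for Unigene66157 and Unigene65020, in place of sepals and dorsal petals. With total-read scaling, lateral petals were lowest for 3, carpels for 2, and ventral petals and leaves for 1 each. Under both other scalings, ventral petals replaced carpels as the lowest for Unigene50478. Stamens were neither highest nor lowest for any of them.

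**Figure D1:**
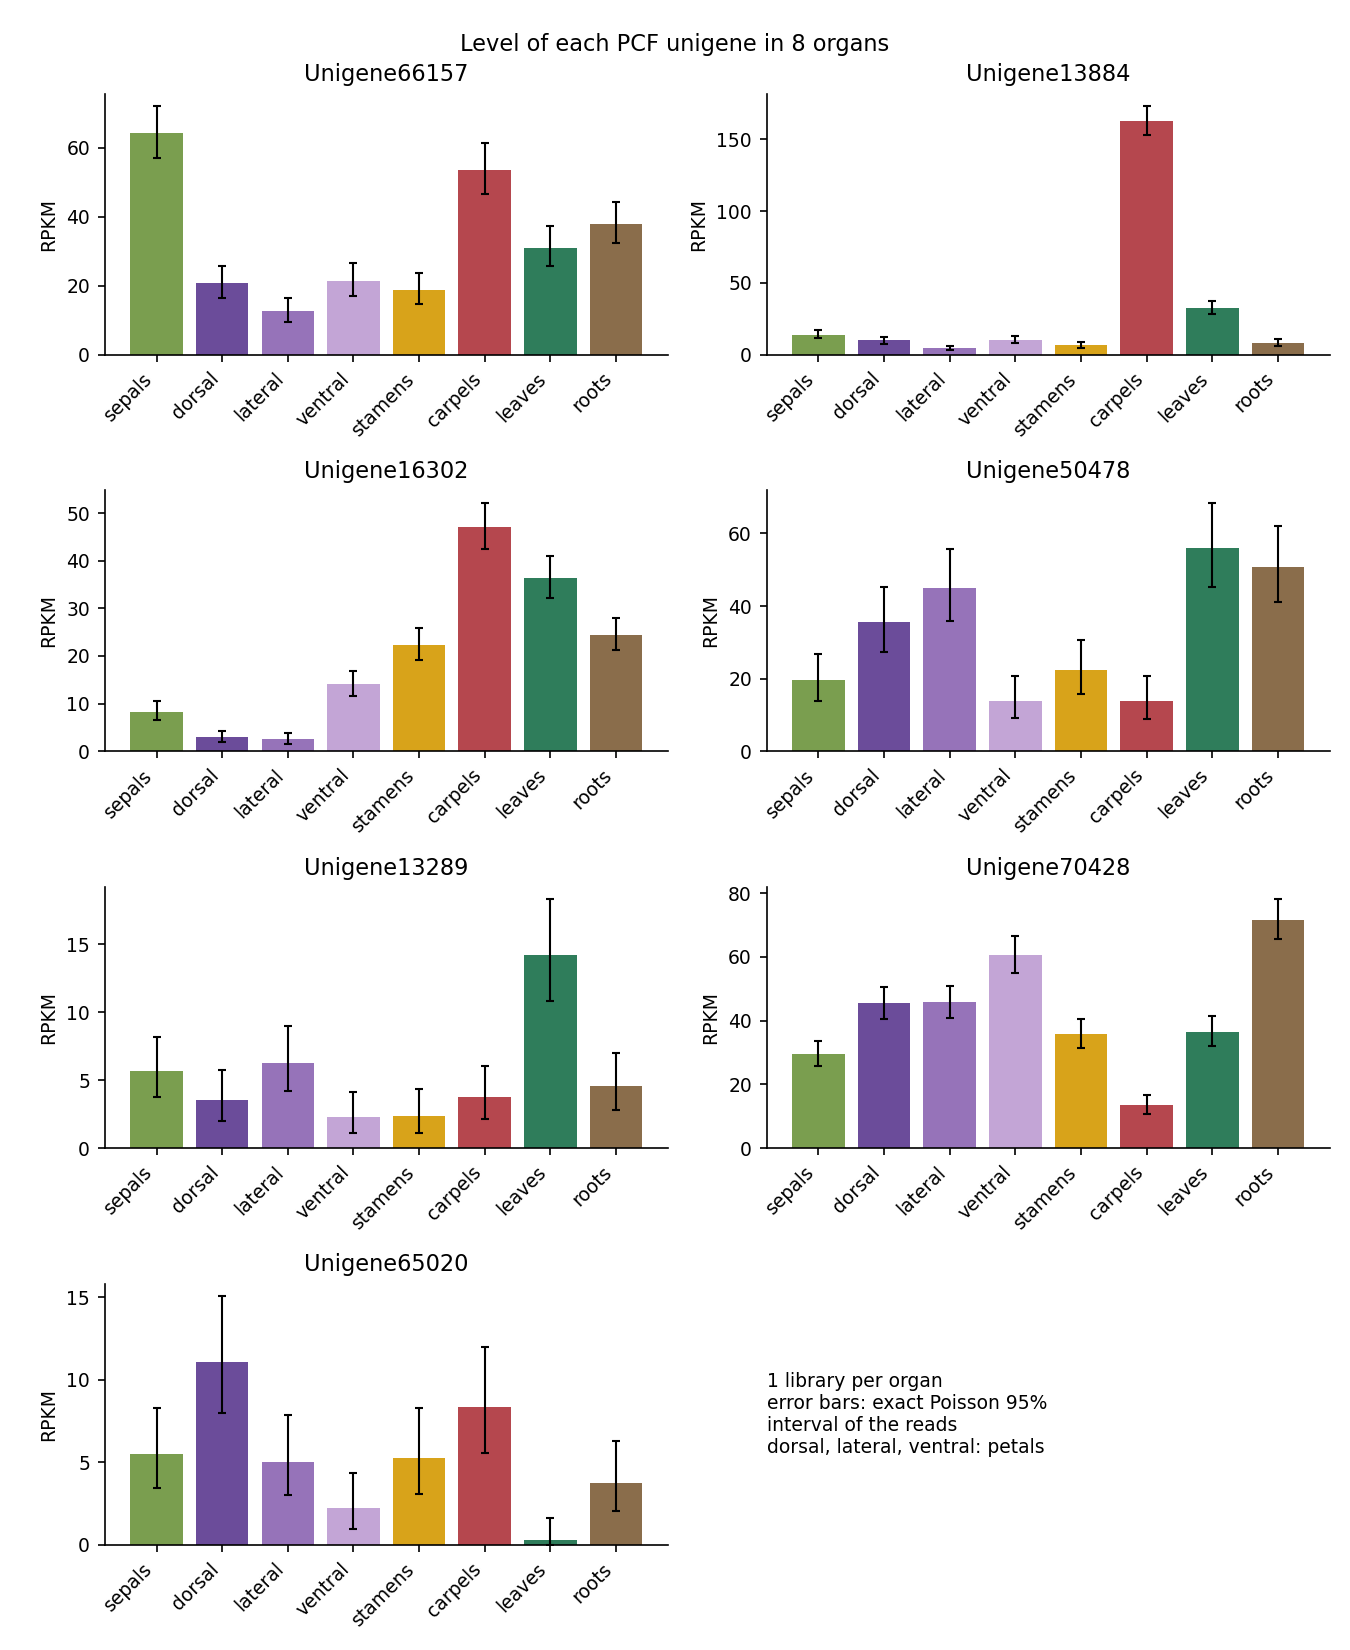
Bars give the RPKM of each of the 7 PCF unigenes in 8 organs, with 1 library per organ, on a separate linear axis for each unigene. Error bars are exact Poisson 95% intervals of the reads. Unigene13884 stands at 163 RPKM in carpels and at 32.6 or less in every other organ, and Unigene65020 has 1 read in leaves.

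Unigene13884, 1131 bp long, had the strongest organ bias of the 7 by its Ratio. It had 1002 reads in carpels, 197 in leaves, 99 in sepals, 65 in ventral petals, 64 in dorsal petals, 55 in roots, 40 in stamens and 29 in lateral petals. In RPKM these were 163 in carpels (interval 153 to 173), 32.6 in leaves, 13.9 in sepals, 10.2 in ventral petals, 9.81 in dorsal petals, 8.33 in roots, 6.58 in stamens and 4.35 in lateral petals. Carpels were thus alone at the top, leaves stood next, and from sepals downward no organ differed from its neighbour in the order beyond counting error. The carpel level was 5.0-fold that of leaves (interval 4.29 to 5.86), 11.7-fold that of sepals (9.50 to 14.5), 19.6-fold that of roots (14.9 to 26.1), 24.7-fold that of stamens (18 to 34.8) and 37.4-fold that of lateral petals (25.9 to 56.1). Carpels held 65.5% of the sum of its RPKM over the 8 organs. Between the inner whorls of the flower, carpels and stamens, it was the unigene with the widest gap among the 7.

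Unigene16302, matched to TCP20, was also highest in carpels but spread over more organs. It had 367 reads in carpels, 279 in leaves, 204 in roots, 172 in stamens, 114 in ventral petals, 75 in sepals, 24 in dorsal petals and 21 in lateral petals, which gave 47.1, 36.4, 24.4, 22.4, 14.1, 8.34, 2.90 and 2.49 RPKM. Carpels exceeded leaves 1.29-fold (interval 1.10 to 1.52), and leaves exceeded roots 1.49-fold (1.24 to 1.80). Roots and stamens did not differ beyond counting error, nor did dorsal and lateral petals, while the other neighbours in the order did. The level in carpels was 18.9-fold that in lateral petals (12.2 to 30.9). Its deposited Gene Ontology process was response to hormone stimulus.

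Unigene66157, matched to TCP7, was high at the outside and at the centre of the flower. Its reads were 284 in sepals, 205 in carpels, 156 in roots, 117 in leaves, 85 in ventral petals, 84 in dorsal petals, 71 in stamens and 52 in lateral petals, or 64.2, 53.5, 38.0, 31.1, 21.4, 20.7, 18.8 and 12.5 RPKM. Sepals and carpels did not differ beyond counting error (ratio 1.20, interval 0.999 to 1.44), and the order of these organs flipped under TMM factors (0.92) and under median-of-ratios size factors (0.76). Both organs stood above the petals and stamens, with carpels 2.85-fold above stamens (2.17 to 3.79). Sepals exceeded lateral petals, the lowest organ, 5.12-fold (3.80 to 7.02).

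Unigene70428, matched to TCP19, had the highest mean level of the 7, at 42.3 RPKM over the 8 organs, and ran the other way in carpels. It had 510 reads in roots, 417 in ventral petals, 329 in lateral petals, 320 in dorsal petals, 238 in leaves, 234 in stamens, 227 in sepals and 89 in carpels, or 71.5, 60.5, 45.8, 45.4, 36.4, 35.7, 29.6 and 13.4 RPKM. Roots exceeded ventral petals 1.18-fold (interval 1.04 to 1.35), and sepals, next above the bottom, exceeded carpels 2.21-fold (1.72 to 2.86). Lateral and dorsal petals did not differ beyond counting error, and neither did leaves and stamens. Roots stood 5.34-fold above carpels (4.26 to 6.77).

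Unigene50478, the shortest of the 7 at 317 bp, was high in both seedling organs and in the upper petals. Its reads were 95 in leaves, 94 in roots, 84 in lateral petals, 65 in dorsal petals, 39 in sepals, 38 in stamens, 25 in ventral petals and 24 in carpels. The levels were 56.0, 50.8, 45.0, 35.5, 19.6, 22.3, 14 and 13.9 RPKM in the same order of organs. With total-read scaling the levels fell into an upper set (leaves, roots, lateral and dorsal petals) and a lower set (stamens, sepals, ventral petals and carpels). The step from dorsal petals to stamens (1.59-fold, interval 1.05 to 2.44) was then the only one between neighbours that exceeded counting error. This split depends on the scaling. TMM factors move dorsal petals by -0.17 (log2) and stamens by 0.003, which narrows the step, and its interval was not recomputed. The ratio of leaves to roots went from 1.10 to 1.54 with TMM and 1.52 with median-of-ratios factors. Ventral petals and carpels were level (ratio 1.0, interval 0.550 to 1.84), and under both TMM and median-of-ratios factors ventral petals became the lowest.

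Unigene13289 and Unigene65020 had the fewest reads, 190 and 152 in total. Unigene13289, matched to TCP22, had 60 reads in leaves, 29 in lateral petals, 28 in sepals, 21 in roots, 16 in dorsal petals, 16 in carpels, 10 in ventral petals and 10 in stamens. Its RPKM was 14.2 in leaves (interval 10.8 to 18.3) and between 2.25 in ventral petals and 6.24 in lateral petals elsewhere, so that leaves stood 2.28-fold above the next organ (1.44 to 3.68) and no other neighbours differed beyond counting error.

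Unigene65020 had 41 reads in dorsal petals, 29 in carpels, 22 in sepals, 19 in lateral petals, 18 in stamens, 14 in roots, 8 in ventral petals and 1 in leaves. The levels were 11.1 RPKM in dorsal petals (interval 7.97 to 15.1), 8.33 in carpels, 5.47 in sepals, 5.04 in lateral petals, 5.24 in stamens, 3.75 in roots, 2.22 in ventral petals and 0.292 in leaves (0.00739 to 1.63). Leaves were thus at the edge of detection, with 7.66% of the bases of the unigene covered there against 87.3% in dorsal petals. Carpels stood 28.5-fold above leaves, with a counting interval from 4.73 to 1165 because of the single leaf read. Dorsal petals and carpels did not differ beyond counting error (ratio 1.33, interval 0.808 to 2.22), and carpels became the highest organ under both TMM and median-of-ratios factors.

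Over all 7 unigenes, 31 of the 49 pairs of neighbouring organs did not differ beyond counting error. These were 2 of 7 pairs for Unigene16302 and Unigene70428 and 6 of 7 for Unigene50478, Unigene13289 and Unigene65020. The last 3 also had the fewest reads (464, 190 and 152), though Unigene13884 had 5 of 7 with 1551 reads. Neighbours are close in level because the organs were ordered by it, so organs further apart may still differ. In Unigene13884, ventral petals exceeded lateral petals 2.34-fold (1.49 to 3.76).

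Added up, RPKM of the 7 unigenes was 303 in carpels, 207 in leaves, 201 in roots, 147 in sepals, 129 in dorsal petals, 125 in ventral petals, 121 in lateral petals and 113 in stamens. The unigene that gave most of this sum differed between organs. Unigene13884 made 53.8% of it in carpels, Unigene66157 43.7% in sepals and Unigene50478 27.1% in leaves. Unigene70428 was the largest part in the other 5 organs, from 31.5% in stamens to 48.6% in ventral petals, yet 4.42% in carpels.

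**Figure D2:**
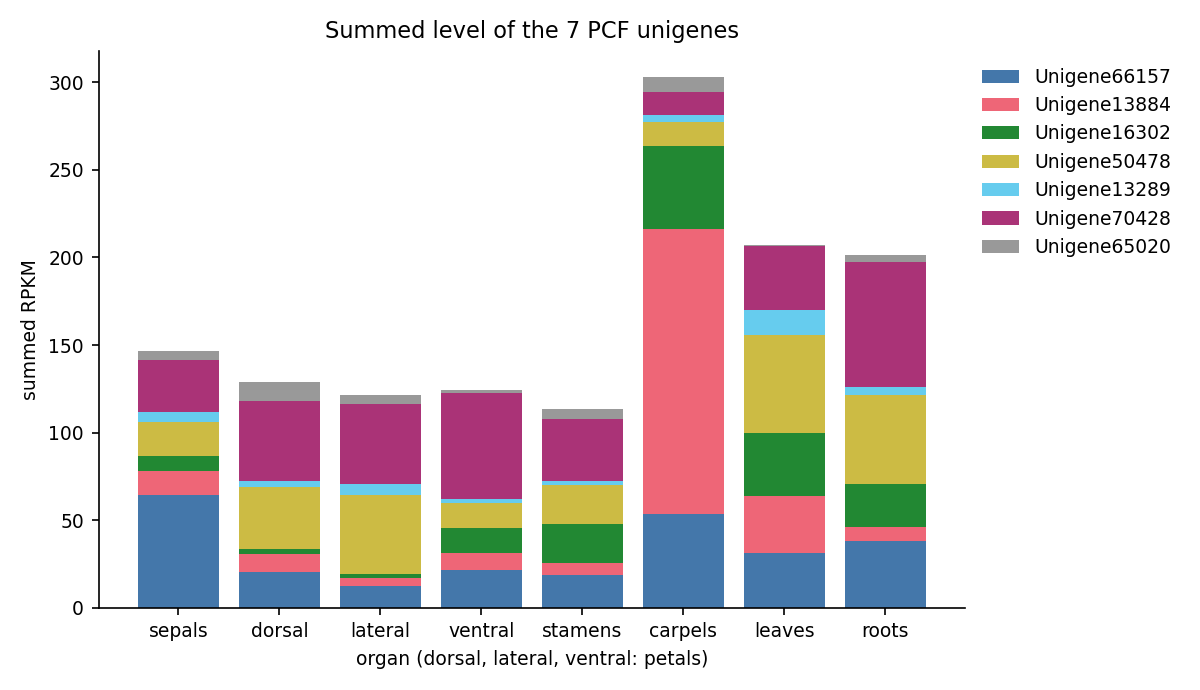
Stacked bars give the RPKM of the 7 PCF unigenes added up in each of the 8 organs (1 library each), with a colour for each unigene. Carpels reach 303 and stamens 113, and the carpel bar is mostly Unigene13884 (53.8%) while Unigene70428 is 48.6% of the ventral petal bar.

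The study called a unigene enriched in an organ where its RPKM was more than 2 times that of the highest other organ (the Ratio) and lay more than 3.75 standard deviations of the other organs above their mean (the Z-score). By this rule 1 of the 7, Unigene13884, was enriched in carpels with a Ratio of 5.0 and a Z-score of 16.0, where 6.26% of the 52191 unigenes with at least 50 reads were called. Unigene13289 was enriched in leaves with a Ratio of 2.28 and a Z-score of 6.63, as were 4.08% of all. Together 2 of the 7 were enriched in an organ, beside 20.5% of all unigenes. The remaining 5 had a Ratio between 1.10 and 1.33 in their highest organ. The interval of the Ratio of Unigene13289 reached below 2, that of Unigene13884 did not.

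Downregulation was called where RPKM was below 0.5 times the mean of the other organs with a Z-score under -1.5. This reading of the study's rule gave fewer calls in sepals, stamens and carpels than the study reported. The call held for Unigene70428 in carpels, at 0.289 times the mean of the other organs with a Z-score of -2.22, and 19.2% of all unigenes were called so in carpels. It also held for Unigene65020 in leaves, at 0.0497 times the mean with a Z-score of -1.89, where 8.13% were called. In sum 2 of the 7 were downregulated in an organ, beside 34.9% of all. The carpel library thus held the highest level of Unigene13884 and Unigene16302 and the lowest of Unigene70428 and, level with ventral petals, of Unigene50478, which was not called.

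Across the dorsoventral axis of the flower, 3 of the 7 differed more than 2-fold between dorsal and ventral petals, and they did not share a direction. Unigene65020 had 41 reads in dorsal petals, 19 in lateral and 8 in ventral petals, and its RPKM was 5.01-fold higher in dorsal than in ventral petals (interval 2.32 to 12.4). Unigene50478 had 65, 84 and 25 reads and was 2.54-fold higher in dorsal petals (1.58 to 4.21). These are 2 of 7 with dorsal petals higher, where 8.98% of all unigenes passed 2-fold in that direction. Unigene16302 had 24, 21 and 114 reads, and its dorsal level was 0.206 of the ventral one (0.127 to 0.322), the only 1 of 7 with ventral petals higher past 2-fold, beside 12.2% of all. Both directions held under TMM and median-of-ratios factors. The ventral petal library also held more pollen protein RPKM (2741) than the dorsal (953) and lateral (1060) ones, and Unigene16302 was at 22.4 RPKM in stamens. AGAMOUS, the other marker read for stamens, was at 1.48 RPKM in ventral petals, 0 in dorsal and lateral petals and 315 in stamens. Whether stamen material in the ventral petal library adds to the level of Unigene16302 there was not tested.

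The lateral petals went with the dorsal petals in 2 of these 3 unigenes. Unigene16302 was low in both lateral and dorsal petals, which did not differ beyond counting error (dorsal over lateral 1.17, interval 0.622 to 2.20). Unigene50478 was high in both, with dorsal over lateral at 0.790 (0.562 to 1.10) and lateral over ventral at 3.22 (2.04 to 5.25). Unigene65020 was higher in dorsal than in lateral petals (2.20-fold, 1.25 to 4.02), and its lateral and ventral levels did not differ beyond counting error (2.28, 0.952 to 6.01).

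In the other unigenes the dorsal and ventral petals were closer. Unigene70428 was lower in dorsal than in ventral petals at 0.750 (0.647 to 0.870) and at 0.756 (0.652 to 0.876) in lateral petals. Unigene66157 was level between dorsal and ventral petals (0.966, 0.706 to 1.32), and so was Unigene13884 (0.963, 0.671 to 1.38), and both were lowest in lateral petals, which stood at 0.586 (0.407 to 0.838) and 0.428 (0.266 to 0.672) of the ventral level. The interval of Unigene13289 was too wide to tell dorsal from ventral petals (1.56, 0.668 to 3.86), while its lateral level was 2.78-fold the ventral one (1.32 to 6.39). The median log2 ratio of dorsal to ventral petals was -0.05 over the 7 and 0.04 over all unigenes with reads in both.

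**Figure D3:**
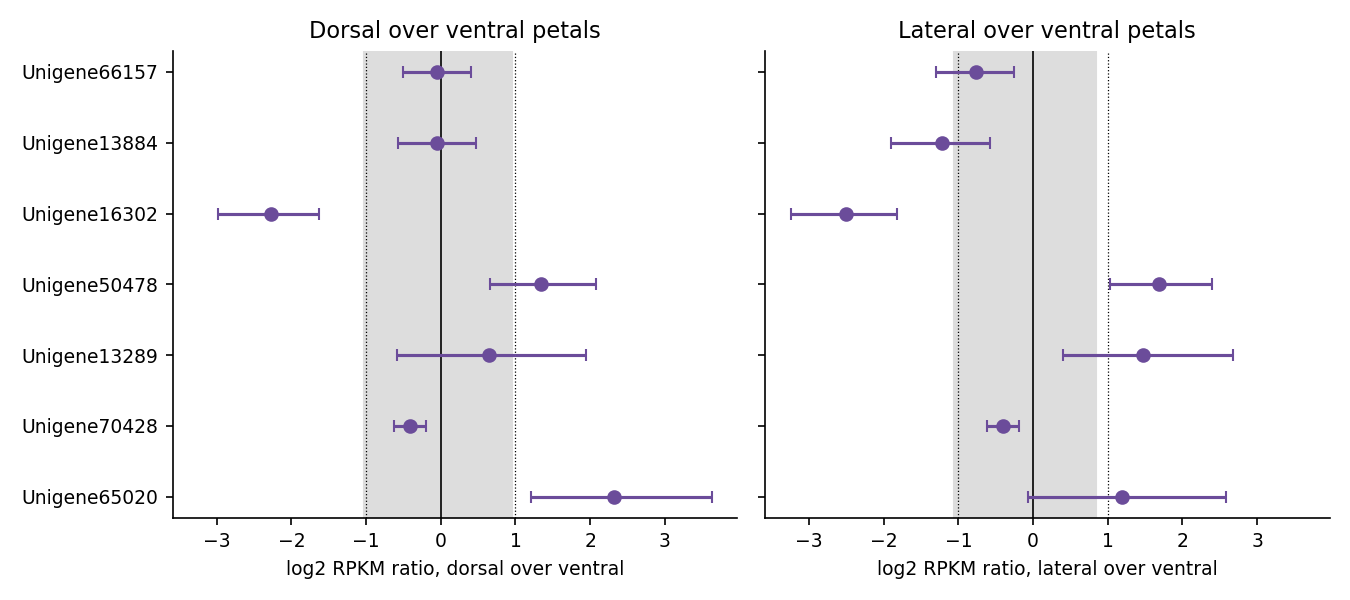
Points give the log2 ratio of RPKM in dorsal petals (left) and lateral petals (right) over ventral petals for the 7 PCF unigenes, with exact 95% counting intervals as bars and dotted lines at 2-fold. The grey band runs from the 10th to the 90th percentile of all unigenes with at least 50 reads and reads in both libraries. It spans -1.03 to 0.95 on the left and -1.06 to 0.85 on the right. Unigene16302, Unigene50478 and Unigene65020 lie outside it in both panels, and Unigene13884 and Unigene13289 lie outside it on the right only. On the right the counting interval of Unigene65020 holds no difference.

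Between the flower and the seedling, 4 of the 7 were within 2-fold, 2 were higher in the seedling and 1 in the flower. The mean RPKM of the 6 floral organs was 3.09 times the mean of leaves and roots for Unigene65020 (6.23 against 2.02), the only 1 of 7 with the flower higher past 2-fold, beside 23.7% of all unigenes. Unigene50478 (53.4 in the seedling organs against 25.1 in the floral organs, 2.13-fold) and Unigene13289 (9.38 against 3.96, 2.37-fold) were higher in the seedling organs, which is 2 of 7 beside 13.4% of all. Both seedling organs were high for Unigene50478, while for Unigene13289 leaves exceeded roots 3.12-fold (1.87 to 5.40). For Unigene13884 the floral mean of 34.6 against 20.4 came from carpels, since each of the other 5 floral organs was below 20.4. The median log2 ratio of flower to seedling was -0.49 over the 7 and 0.12 over all.

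Across the 8 organs, the coefficient of variation (SD over mean of RPKM) ran from 0.427 for Unigene70428 to 1.74 for Unigene13884. Between them lay Unigene50478 at 0.527, Unigene66157 at 0.561, Unigene65020 at 0.652, Unigene13289 at 0.727 and Unigene16302 at 0.811. Counting error alone would give 0.0582 for Unigene70428 and up to 0.230 for Unigene65020. The median of the 7 was 0.652 beside 0.619 for all unigenes with at least 50 reads. Of these, 92.6% had a lower coefficient than Unigene13884 and 25.3% a lower one than Unigene70428.

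**Figure D4:**
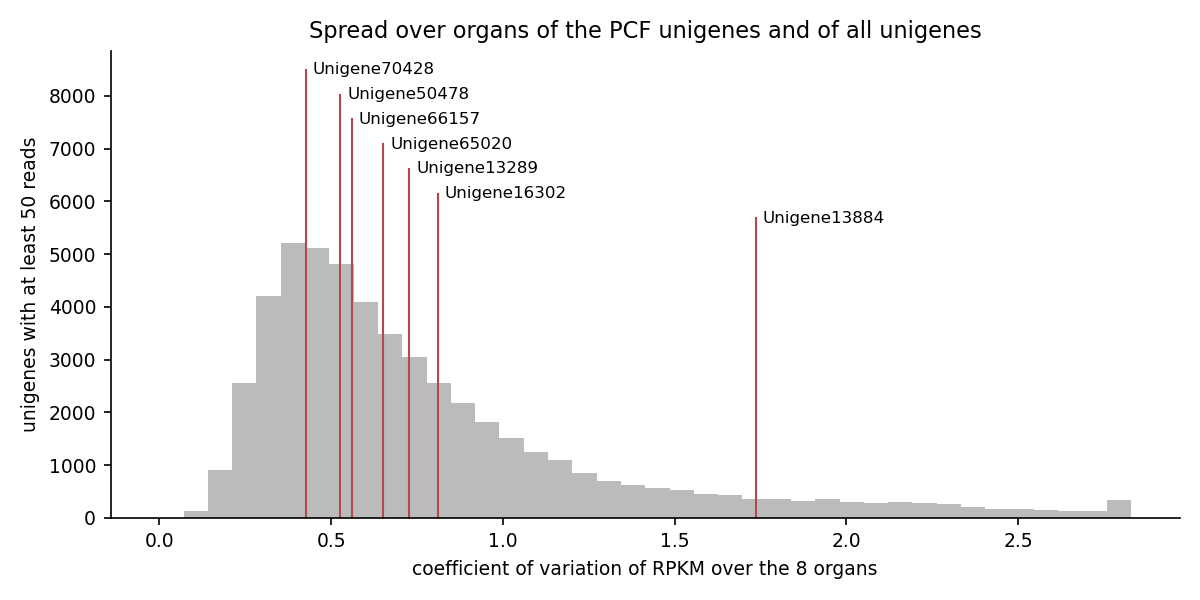
Grey bars count the unigenes with at least 50 reads by the spread of RPKM over the 8 organs (SD over mean), and red lines mark the 7 PCF unigenes, drawn at different heights for the labels only. Unigene13884 lies at 1.74 in the upper tail, and the other 6 lie between 0.427 and 0.811.

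Among the 7, levels over the 8 organs seldom ran together. Of the 21 pairs, 9 had a positive Pearson correlation of log2(RPKM + 1), and the median was -0.07. These are descriptions over 8 libraries that all pairs share. The most alike were Unigene50478 and Unigene13289 at 0.66, Unigene13884 and Unigene16302 at 0.65, and Unigene66157 and Unigene13884 at 0.65. The most opposed were Unigene13884 and Unigene70428 at -0.81, whose extremes both lay in carpels.

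Outside the 7, deposited descriptions named a class I TCP protein for 3 unigenes, all short. Unigene56518 (400 bp) matched TCP9, and Unigene63610 (579 bp) and Unigene46125 (278 bp) both matched TCP8. In *Arabidopsis*, TCP9 acts with TCP20 on a lipoxygenase gene of jasmonate synthesis, and TCP8 and TCP9 act on a salicylic acid synthesis gene. None of the 3 was enriched in an organ.

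Unigene56518 followed Unigene50478 in every organ. It had 157 reads in leaves, 135 in roots, 118 in lateral petals, 111 in dorsal petals, 79 in sepals, 79 in stamens, 45 in ventral petals and 39 in carpels, or 73.3, 57.8, 50.1, 48.1, 31.4, 36.8, 19.9 and 17.9 RPKM. The order of the 8 organs was the same for both (Spearman 1, Pearson 0.97), and RPKM of Unigene56518 was between 1.11 and 1.65 times that of Unigene50478. The ratio over all reads, 1.30, lay inside the counting interval of the ratio in 8 of 8 organs. Whether the 2 unigenes are pieces of 1 transcript was not tested, since no sequence of them was used here.

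The TCP8 unigenes resembled Unigene66157, with Pearson correlations of 0.91 for Unigene63610 and 0.90 for Unigene46125. Both were highest in sepals, at 47.0 and 75.6 RPKM, and lowest in lateral petals, at 9.68 and 12.2. The ratio of Unigene46125 to Unigene63610 over all reads, 1.68, lay inside the counting interval in 8 of 8 organs. Whether these TCP8 unigenes are pieces of 1 transcript was not tested, so their likeness to Unigene66157 may not be 2 separate observations. Another unigene, Unigene17427, described as like a rice TCP family factor without a number, came still closer to Unigene66157 at 0.97, with 31.4 RPKM in sepals, 30.03 in carpels and 3.00 in lateral petals. Its ratio to Unigene66157 ran from 0.239 in lateral petals to 0.561 in carpels, and the ratio over all reads, 0.421, lay inside the counting interval in 4 of 8 organs.

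**Figure D5:**
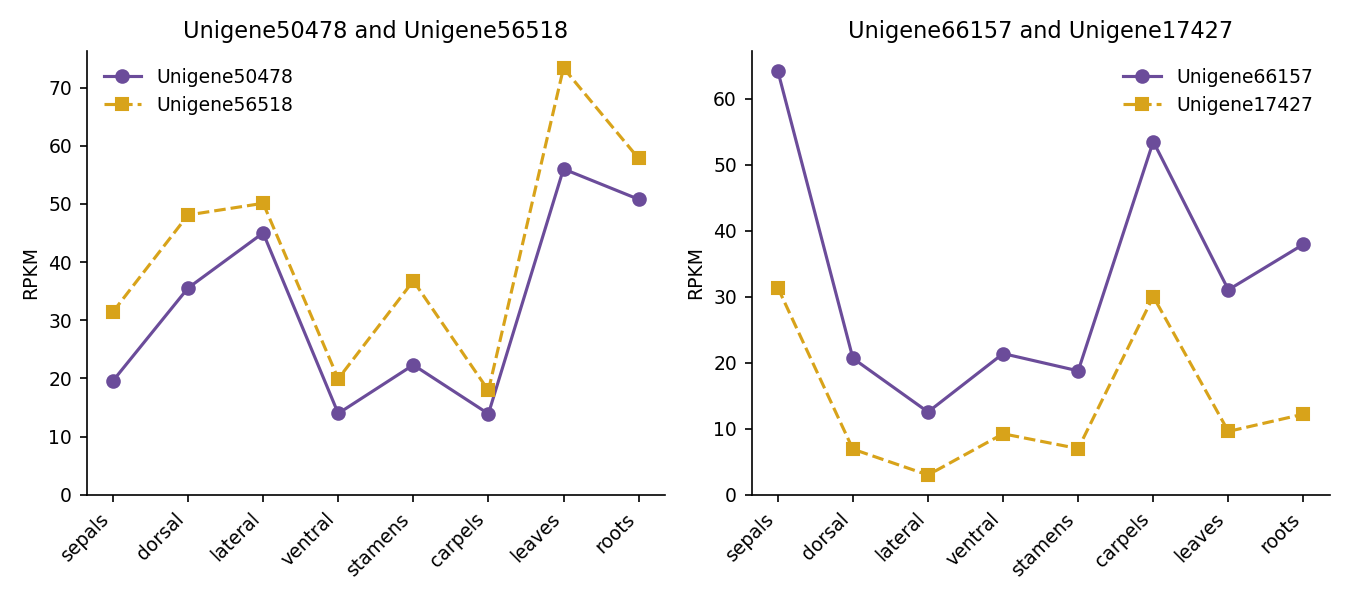
Lines join the RPKM of 2 unigenes over the 8 organs (1 library each), Unigene50478 with Unigene56518 on the left and Unigene66157 with Unigene17427 on the right. On the left both lines have the same order of organs, from 73.3 and 56.0 in leaves to 17.9 and 13.9 in carpels, and on the right both have their highest points in sepals and carpels.

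The share of the level that lay in petals was compared with that of other TCP unigenes. The 3 petal types held between 9.79% (Unigene13884) and 44.8% (Unigene70428) of the 8-organ sum of RPKM in the 7, with a median of 28.2%, and 37.5% was the median of all unigenes with at least 50 reads. In the 3 other class I unigenes the share was 19.9% to 35.2%. Over all unigenes with at least 50 reads it ran from 0% to 100%. In the 7 unigenes named for CYCLOIDEA or TCP1 it was 53.6% to 97.0% with a median of 92.5%. The lowest of these shares was that of Unigene43092, which is 257 bp long. As an example, Unigene68683, a CYCLOIDEA-like unigene, had 722 reads in dorsal petals, 20 each in sepals and keel, 13 in stamens and 2 in wings. It had none in carpels, leaves or roots. Each of the 7 PCF unigenes had a read in every organ. So did Unigene43092, matched to TCP1, with 38 reads in lateral petals and 2 in roots. Enrichment in an organ held for 4 of the 7 unigenes with CYC/TB1 names, all in dorsal petals, where 119 of 52191 unigenes were enriched. It held for 2 of the 7 PCF unigenes, neither in a petal, beside 20.5% of all unigenes enriched in any organ. The study placed 3 unigenes in the CYC/TB1 clade, while the 7 here were found by description words. Whether some of these 7 are pieces of 1 gene was not tested, so they are not counted as separate genes. The CIN words found 3 unigenes, 1 of which is a bHLH protein that shares a name with a TCP and is not counted here, and the other 2, matched to TCP2, had petal shares of 42.4% and 51.2%. A further 5 unigenes, found by words added after the data were seen, matched rice PCF6 or PCF8, which belong to class II despite their names, and their petal shares ran from 31.5% to 80.9%.

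Genes of the kinds that class I TCP proteins are known to bind were read by the words in their descriptions. No unigene was described as proliferating cell nuclear antigen. Of 6 B-type cyclins, which drive entry into mitosis, 5 were highest in carpels and 3 were enriched there, and of 6 A-type cyclins with at least 50 reads 5 were highest and 3 enriched in carpels, beside 16.4% of all unigenes highest and 6.26% enriched there. Unigene70883, a cyclin B, stood at 202 RPKM in carpels, 84.1 in roots, 8.56 in stamens, 5.81 in sepals and under 1 in petals and leaves, and Unigene67875, also a cyclin B, at 248 in carpels, 48.0 in sepals and 0.619 in roots. The A-type cyclins with the most reads, Unigene65016 and Unigene15812, stood at 249 and 206 RPKM in carpels and at 62.6 and 42.2 in roots. All 4 named cyclins were highest in carpels, but they were named for having the most reads, which favours the organ that gives most of those reads. Carpels were also the organ where Unigene13884 and Unigene16302 were highest and Unigene70428 and Unigene50478 lowest (Unigene50478 with total-read scaling only). Whether the PCF unigenes act on these cyclins was not tested.

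Cytosolic ribosomal proteins were the largest list, with 131 unigenes of at least 50 reads. Carpels were the highest organ for 104 of them and 77 were enriched there, among them Unigene64341 (L10a) at 2337 RPKM in carpels and 692 in roots, and Unigene38301 (L9) at 4462 and 1790. A further 22 were enriched in ventral petals, or 16.8% of the list beside 0.446% of all unigenes. These 22 had 1695 reads in ventral petals, 233 in carpels, 129 in stamens and 3 in the other 5 organs together, so that at least 98.5% of the reads of each came from ventral petals, carpels and stamens. The 7 PCF unigenes had between 18.8% and 71.4% of their reads in those 3 libraries, and the part of these 22 in any result was not tested. Whether the 22 are transcripts of vetch was not tested either, so their ventral petal enrichment is given as a property of the library only.

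Some lipoxygenases open the way to jasmonate. Of 70 lipoxygenase unigenes, 5 were enriched in carpels, which is 7.14% beside 6.26% of all unigenes, and 10 were highest there (14.3% beside 16.4%), so that the carpel counts were near the background. Another 13 were enriched in sepals (18.6% beside 0.989% of all) and 14 in roots (20% beside 5.13%). The one with the most reads, Unigene4609, stood at 1670 RPKM in carpels, 1668 in ventral petals, 1123 in dorsal petals and 45.7 in leaves, and Unigene16618 at 747, 911, 483 and 24.8. Both retinoblastoma-related unigenes, whose products restrain the start of DNA replication, were highest in roots, as were 19.9% of all unigenes, and neither was enriched. Unigene71971 was at 54.6 RPKM and Unigene13089 at 19.7 in roots, with carpels next at 42.3 and 13.6. TMM factors move roots by -0.11 (log2) and carpels by 0.28, and this order was not recomputed.

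The median log2 ratio of carpels to the mean of the other organs was 3.54 for B-type cyclins, 2.88 for A-type cyclins, 2.63 for ribosomal proteins, 0.73 for retinoblastoma-related proteins and -1.54 for lipoxygenases, beside -0.91 for all unigenes with at least 50 reads. A value of 0.1 RPKM was added on both sides of this ratio.

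Of 29636 other unigenes with at least 200 reads and an informative description, those most like each PCF unigene over the 8 organs were named by the Pearson correlation of log2(RPKM + 1). For Unigene66157 they were Unigene7758 (0.98), described as an ent-kaurene oxidase of rice, an enzyme of gibberellin synthesis, and Unigene17427 (0.97). Unigene13884 was most like Unigene6151, a protein kinase, and Unigene70290, matched to the amino acid permease AAP1, both at 0.98. AAP1 had 162 RPKM in carpels and 56.4 in leaves. Unigene16302 was nearest to Unigene13473 (0.98), similar to a dihydrofolate reductase of yeast, and Unigene61634 (0.94), matched to the rice gene Os07g0671100. Unigene50478 was nearest to Unigene56518 (0.97) and to Unigene48931 (0.93), a homolog of a regulator of nonsense transcripts.

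For the rest, the nearest were Unigene4047 of the ABC1 family (0.94) and Unigene69207, a 5-formyltetrahydrofolate cycloligase (0.93), beside Unigene13289. Unigene12676, described by a t-SNARE domain, and Unigene4508, a receptor protein kinase, were nearest to Unigene70428 (0.99 and 0.98). Unigene65020 was most like Unigene68914, matched to the rice gene Os04g0570800, and Unigene69078, a glycosyl hydrolase of family 17, both at 0.96. How common each pattern was differed: 505 of 37663 unigenes with at least 200 reads had a correlation above 0.9 with Unigene70428, 92 with Unigene13884, 90 with Unigene66157, 22 with Unigene65020, 21 with Unigene13289, 14 with Unigene16302 and 6 with Unigene50478.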

How the data were processed

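According to the authors, poly(A) RNA of 8 organs was fragmented, copied with random hexamers and sequenced, and reads were aligned to unigenes assembled *de novo* from a mixture of the organs. The deposited counts are uniquely aligned reads per unigene, not normalized. The deposited RPKM values divide these counts by unigene length and library total, and the values recomputed here differed from them by at most rounding. The deposited percent of bases covered is the share of a unigene under at least 1 read. No source used here names the aligner, and no genome build applies. A unigene missing from a library's table was taken as 0 reads.

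The members are the unigenes that the study placed in the PCF clade. Members and lists were chosen with earlier results of these data known. The text names all 7 members, the 2 unigenes most like each, and the class I unigenes and 2 unigenes per target list with the most reads. Sets found by description words used the deposited matches only. Unigene17427 (beyond its place among the most alike), Unigene68683, Unigene43092 and the TCP2 matches were picked after their values were seen. Groups came from the tissue labels. With 1 library per organ, differences were described by exact 95% intervals of counting error and by the study's Ratio and Z-score rules (sample SD), with unigenes of at least 50 reads as background. The mean of the other organs was used for downregulation, and the highest other organ was added after seeing the data. With the mean, 416 of all unigenes were downregulated in sepals, 3456 in stamens and 11628 in carpels, each fewer than the study reported. The downregulation calls may thus not be those of the study. Scaling factors came from edgeR 4.0.16 (TMM) and from DESeq2 1.42.0 (median of ratios), with no test from either. Library totals ran from 5.35 to 6.28 M reads. Calculations used Python 3.11.15, pandas 2.3.3, scipy 1.17.1, matplotlib 3.10.9 and R 4.3.3, and the rules were tested on simulated counts. Alternatives tried were other scalings, pseudocounts, thresholds and sets of organs.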

Additional observations from a re-analysis of the deposited data

How the results depend on the processing

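Of 89 recomputed values and counts, 76 stayed within the counting interval of the value (or within 1.5 times a count), 13 moved and 0 changed the direction of a value whose interval left out no difference. With a Ratio above 4, the number of enriched calls went from 2 to 1 (Unigene13884 remained), and every other alternative for the enrichment and downregulation rules kept 2 calls. The ratio of the highest to the next organ of Unigene66157 became 0.92 with TMM factors and 0.76 with median-of-ratios factors, so that carpels stood first, and that of Unigene50478 went from 1.10 to 1.54 and 1.52. The log2 ratio of flower to seedling of Unigene70428 went from -0.49 to -0.65 with TMM and -0.62 with median-of-ratios factors. The coefficient of variation became 1.84 for Unigene13884 and 0.94 for Unigene16302 with TMM factors, and over the 6 floral organs alone it was 0.673 for Unigene66157, 1.82 for Unigene13884, 1.04 for Unigene16302 and 0.420 for Unigene13289. The cause was not tested.

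No paired analysis was possible because each organ has 1 library. Leaving out a replicate was not possible for the same reason, so biological variation between plants of 1 organ is unknown. Depth limits Unigene13289 and Unigene65020 most, with 190 and 152 reads.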
